A study of Mus musculus with 20 samples.

Results

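A set of 34 interferon response genes was followed in RNA sequencing of the mouse left ventricle. The genes were picked by symbol, not by their values: a row of the deposited tables was taken when its gene name was on the list, and all 34 were listed at both times, of 20752 genes listed in either table (19872 at 2 weeks and 19985 at 24 weeks). The tissue came from dnOGAh-Tg mice, in which a dominant-negative form of OGA, the enzyme that removes the sugar O-GlcNAc from proteins, is made in the heart alone, and from Control mice. Doxycycline given in the food was the inducer, for 2 or for 24 weeks. Each of the 4 groups, Control 2wk, dnOGAh-Tg 2wk, Control 24wk and dnOGAh-Tg 24wk, held 5 libraries of total RNA. The sources used here do not give the promoter that drives the transgene, or the age and strain of the mice. They also do not say whether Control mice carried part of the transgene system or ate the same food. Sex is not given either, but in all 20 libraries the Y-linked gene Ddx3y was at 2116 to 3848 normalized counts. Xist, made from the inactive X chromosome, was at 0 to 17.7, so all the libraries read as male. No label ties a library to its own animal, so every p-value below rests on the spread between libraries, which may be technical.

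Type I interferons are secreted alarm signals of virus infection and of nucleic acid in the wrong place. They bind a receptor of the chains IFNAR1 and IFNAR2, whose kinases JAK1 and TYK2 phosphorylate STAT proteins, STAT2 among them. With IRF9 these form ISGF3, a complex that binds the interferon-stimulated response element (ISRE) in promoters and switches on antiviral genes, and IRF7, itself induced, carries the response further. Interferon gamma binds another receptor and is the main inducer of the immunoproteasome and of peptide transport for MHC class I. In the heart the response is best known from viral myocarditis and from macrophages of injured muscle. Because the whole ventricle was sequenced, more cells of a type and more RNA per cell cannot be told apart in any result.

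The ISRE letters are shown here because several of the genes with the largest changes carry them close to their start. Promoter windows of 300 bases (250 before the start and 50 after it) were found in a RefSeq table of the build GRCm38.p6 for 25 of the 34 genes. A longer form, GAAA, any pair of bases and GAAACT, searched on both strands, was present in the windows of 8 of these 25 genes (32.0%) and of 82 of 27025 genes in the table (0.303%). A shorter form, GAAA, any pair of bases and GAAA, which lies inside the longer one, was present in 12 of 25 (48.0%) and in 3.99% of all genes. The 250 bases before the start are given below for some of the genes with large changes. Capitals mark the longer form, or the shorter form in a gene without the longer one. Further shorter matches in a gene with the longer form are not in capitals. These bases hold the longer form in Ifit1, Ifit3, Ifit3b, Bst2 and Cxcl10, overlapping copies of the shorter form in Isg15, and neither in Irf7. Other genes changed as much as some of these and are not printed: Oasl1, Oasl2 and Ifi44, with neither form, and Oas1a, with the longer form.
Ifit1 (chr19:34640639-34640888, plus strand): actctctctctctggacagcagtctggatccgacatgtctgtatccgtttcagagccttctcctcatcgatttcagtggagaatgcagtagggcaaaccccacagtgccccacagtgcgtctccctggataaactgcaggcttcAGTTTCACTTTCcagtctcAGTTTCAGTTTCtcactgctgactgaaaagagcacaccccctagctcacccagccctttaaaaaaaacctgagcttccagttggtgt
Ifit3 (chr19:34583279-34583528, plus strand): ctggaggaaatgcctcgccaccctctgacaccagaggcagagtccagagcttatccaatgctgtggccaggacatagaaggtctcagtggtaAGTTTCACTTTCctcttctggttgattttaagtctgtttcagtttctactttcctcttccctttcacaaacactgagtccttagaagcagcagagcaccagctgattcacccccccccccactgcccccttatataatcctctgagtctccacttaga
Ifit3b (chr19:34607707-34607956, plus strand): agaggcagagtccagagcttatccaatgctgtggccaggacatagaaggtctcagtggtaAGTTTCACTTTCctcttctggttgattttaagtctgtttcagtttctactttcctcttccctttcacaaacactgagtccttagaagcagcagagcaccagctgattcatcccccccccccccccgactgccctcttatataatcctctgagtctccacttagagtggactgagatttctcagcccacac
Bst2 (chr8:71537473-71537722, minus strand): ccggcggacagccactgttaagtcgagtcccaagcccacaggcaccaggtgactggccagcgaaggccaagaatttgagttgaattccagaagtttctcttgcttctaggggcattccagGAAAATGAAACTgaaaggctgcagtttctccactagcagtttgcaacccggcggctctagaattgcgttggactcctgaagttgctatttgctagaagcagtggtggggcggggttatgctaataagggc
Cxcl10 (chr5:92348890-92349139, minus strand): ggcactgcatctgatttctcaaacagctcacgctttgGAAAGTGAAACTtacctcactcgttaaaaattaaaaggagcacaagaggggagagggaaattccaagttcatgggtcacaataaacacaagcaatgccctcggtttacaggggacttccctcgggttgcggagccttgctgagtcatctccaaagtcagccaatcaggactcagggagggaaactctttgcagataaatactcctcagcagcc
Isg15 (chr4:156200819-156201068, minus strand): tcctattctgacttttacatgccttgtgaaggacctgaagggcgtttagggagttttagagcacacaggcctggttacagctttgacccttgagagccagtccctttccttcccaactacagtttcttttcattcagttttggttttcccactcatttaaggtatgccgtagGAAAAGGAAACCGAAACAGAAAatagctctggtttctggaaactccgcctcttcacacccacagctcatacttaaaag
Irf7 (chr7:141266425-141266674, minus strand): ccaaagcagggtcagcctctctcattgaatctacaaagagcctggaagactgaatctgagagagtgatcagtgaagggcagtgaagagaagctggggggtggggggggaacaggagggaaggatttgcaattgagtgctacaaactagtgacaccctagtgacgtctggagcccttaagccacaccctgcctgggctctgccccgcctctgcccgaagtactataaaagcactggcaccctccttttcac

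In Ifit1 the longer form occurs at 2 places, beginning 106 and 87 bases before the start. In Bst2 and Cxcl10 it occurs at 1 place each, beginning 130 and 213 bases before it. Outside the capitals, a separate shorter match begins 122 bases before the start in Ifit3 and 154 in Ifit3b. In Bst2 a further shorter match, beginning at 124 bases, overlaps the longer form. Ifit3 and Ifit3b carry the longer form at 158 and 190 bases and share an unbroken run of 169 identical bases. As neighbouring copies of 1 gene family they may have had reads split between them. In Isg15 the 3 overlapping short matches span 78 to 57 bases before the start. The other genes with the longer form were Oas1a, whose match begins 20 bases before the start, and Ddx58 and Ifitm3, whose matches lie at or just after the start. Irf7, Irf9, Oasl1, Oasl2, Psmb8, Psmb9, Tap1 and Trim25 had neither form in their windows, which says only that these letters are not in these bases. A match is a description of the sequence and not evidence of binding.

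Reads recovered from the tables ranged from 22804712 to 50996272 per library, the highest in library 1 of dnOGAh-Tg at 2 weeks. Oga, which checks the labels because the transgene is a form of it, separated the groups at both times, but unevenly at 2 weeks. The titles of dnOGAh-Tg 1 and 2 at 2 weeks carry the code F11, and these libraries had 2.43 and 1.81 times the Control mean. Library 3 (F13) and libraries 4 and 5 (F14) had 16.1, 17.2 and 11.9 times that mean. Of the Control libraries at 2 weeks, 1 and 2 are F11 and 3 to 5 are F14. At 24 weeks the dnOGAh-Tg libraries had 6.90 to 17.9 times the Control mean, and each code (F17, F19, F23, F24, F25) marks 1 library of each group. The meaning of the codes is not stated in the labels. All 9 cardiomyocyte markers passed the filter at both times, which cannot tell the left ventricle from other parts of the heart. The sum of 5 atrial markers at 2 weeks was 2480 to 20696 in Control, the highest in Control 2. It was 9521 and 16236 in the F11 dnOGAh-Tg libraries and 85534 to 116689 in the other dnOGAh-Tg libraries. At 24 weeks the same sum was 4921 to 19620 in Control and 148477 to 307430 in dnOGAh-Tg. The cause of this difference was not tested. Values are normalized read counts, that is, reads divided by 1 size factor per library. They are given in the order of libraries 1 to 5, and a change is the mean of log2(count + 1) in dnOGAh-Tg minus that in Control, with its standard error (SE) from limma, which understates the change of low genes. A gene was called where its p, adjusted over all genes tested, was under 0.05.

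**Figure D1:**
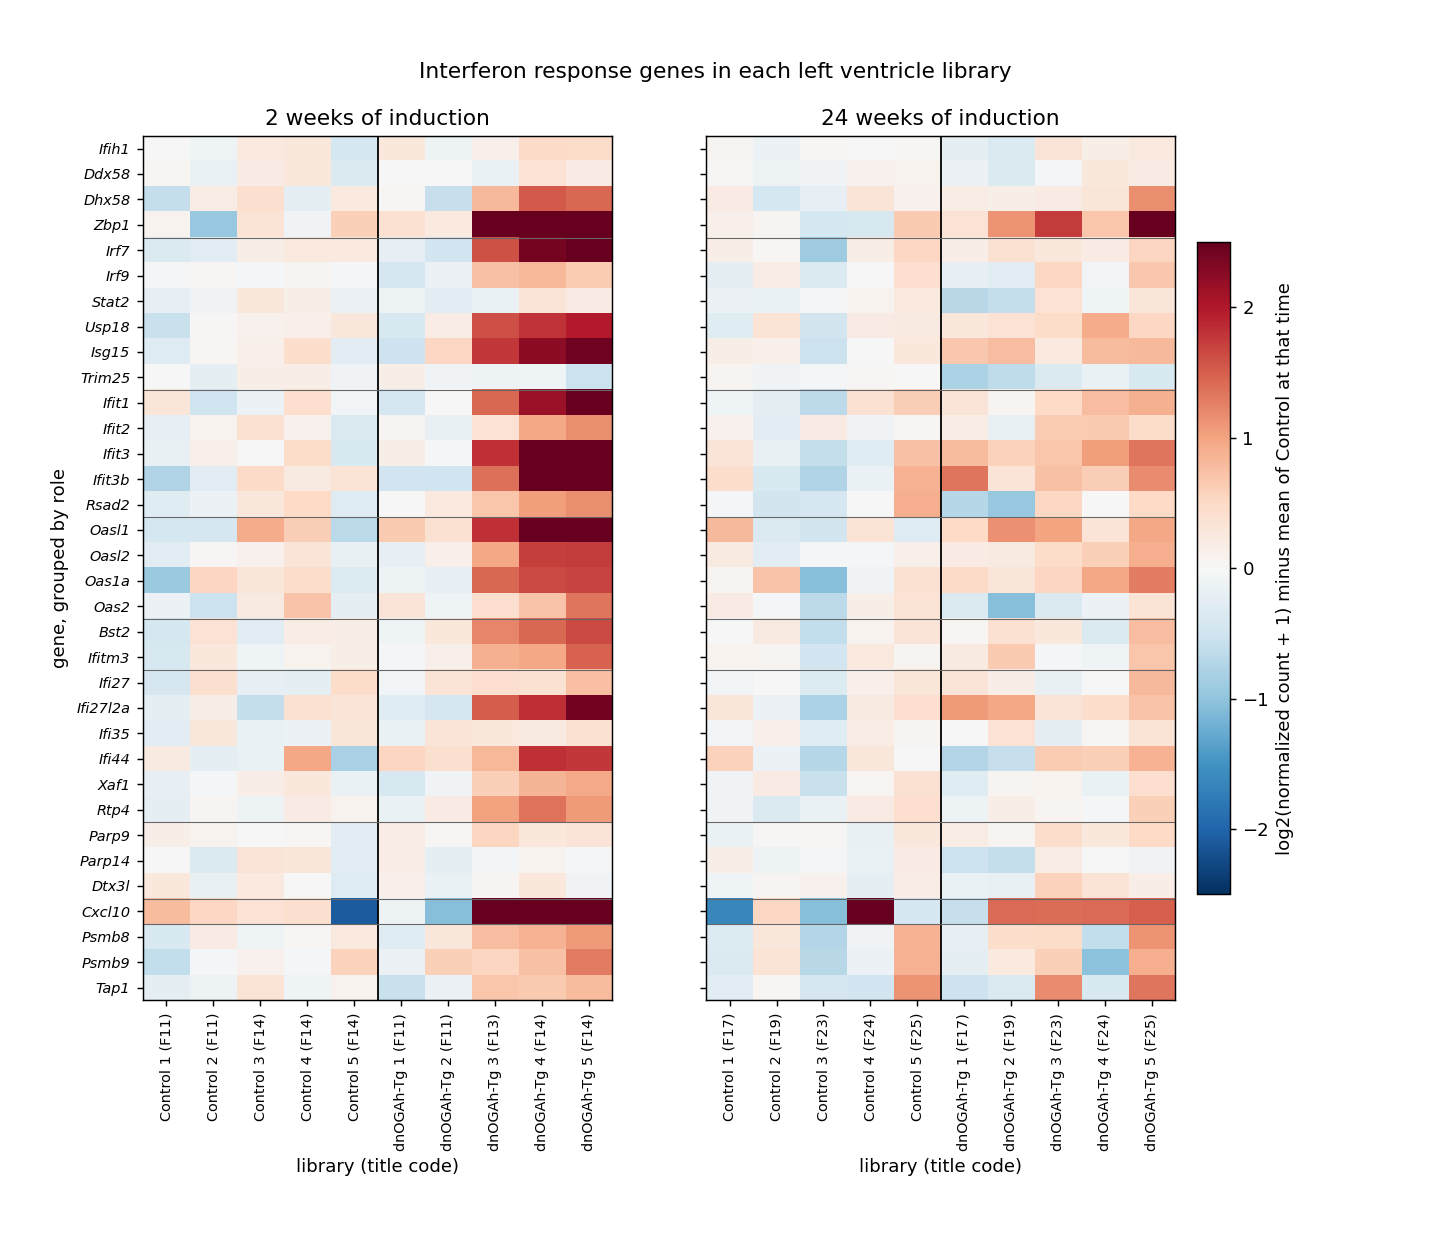
Log2(normalized count + 1) of each of the 34 genes (vertical axis, grouped by role) in each library (horizontal axis, with its title code), minus the mean of the 5 Control libraries of the same time; colours beyond the ends of the scale are drawn at the ends. At 2 weeks the red block fills dnOGAh-Tg 3, 4 and 5 and leaves the 2 F11 dnOGAh-Tg libraries close to Control, while at 24 weeks the colours are paler and dnOGAh-Tg 5 is the most evenly red.

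After 2 weeks, most of the interferon response genes were high in 3 of the 5 dnOGAh-Tg libraries and near Control in the other 2. Ifit3, an antiviral protein that binds its relative IFIT1, lay at 174 to 351 in the F13 and F14 dnOGAh-Tg libraries, against 37.3 to 67.2 in Control and 54.3 and 47.2 in the F11 dnOGAh-Tg libraries. Of the 34 genes, 22 were above every Control library in all 3 of the libraries with high Oga, and for 24 genes both F11 dnOGAh-Tg libraries lay inside the Control range. Without Zbp1 and Cxcl10, which were not tested, the first count was 20 of 32, against 15.1% of all tested genes. The second count was not made over all genes. With all 10 libraries, limma called 0 of 32 tested members, as it called 0 of 14584 genes (0.0%), and edgeR also called 0. No member was free of overlap, against 1.19% of all genes wholly above Control and 1.96% wholly below it. At an unadjusted p under 0.05, 15 of the 32 were higher and none lower, against 12.3% of all genes higher. DESeq2 called 8 of the 32 higher, against 4.16% of all genes. The median log2 change of the 32 was 0.62, against -0.02 over all tested genes, and 29 were above 0. Zbp1 and Cxcl10 were not tested, because too few libraries reached 10 counts.

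Without the F11 dnOGAh-Tg libraries, a comparison planned with their low Oga already known, 24 of the 32 tested members were higher and 0 lower at an adjusted p under 0.05. The share of all genes called higher in the same comparison was 16.1%, and 17.7% were called lower. The median log2 change of the 32 was then 0.93, against -0.02 over all genes, and 20 of the 32 lay wholly above Control, against 15.1% of all genes, and none wholly below it, against 18.0%. Leaving out only dnOGAh-Tg 1, the deepest library, gave 16 of 32, against 11.3% of all genes. Within the F14 libraries (3 Control and 2 dnOGAh-Tg), 17 of 32 were higher, against 4.12% of all genes, and within the F11 libraries (2 and 2) 0 of 32, against 0.137%, with a median of 0.08. Without any F11 library 21 of 32 were higher, against 10.9%. These last 3 comparisons were chosen after seeing the data. Title code and Oga level cannot be told apart among the dnOGAh-Tg libraries of this time. For each of the 24 called members, the adjusted p over its alternatives was lowest without the F11 dnOGAh-Tg libraries and highest within the F11 libraries. This order is no further evidence, because the 24 were picked by passing in the first of these fits and the F11 fit has only 2 against 2 libraries.

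**Figure D2:**
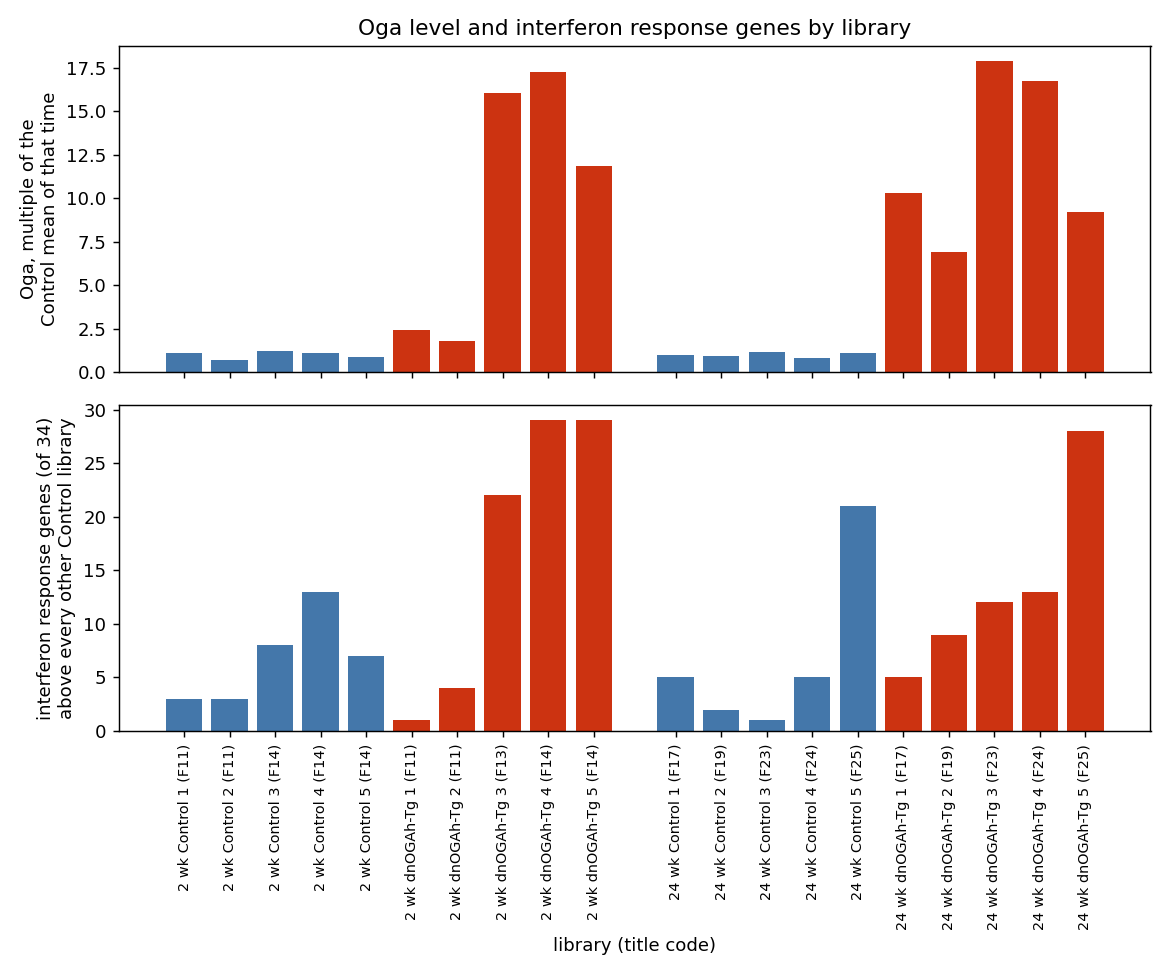
For each library, the upper bars give Oga as a multiple of the Control mean of its time and the lower bars give how many of the 34 genes lay above every Control library (for a Control library, above the other 4). At 2 weeks dnOGAh-Tg 1 and 2 reach 1 and 4 genes and dnOGAh-Tg 3, 4 and 5 reach 22, 29 and 29. At 24 weeks Control 5 reaches 21 and dnOGAh-Tg 5 reaches 28. The same counts were not made over all genes.

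After 24 weeks a few members passed and the groups overlapped for all but Trim25. Ifit3, Isg15, Zbp1, Ifi27l2a and Oasl2 were higher, 5 of 34 tested members against 11.3% of all 14676 tested genes. Trim25, a ubiquitin ligase that acts on the RNA sensor RIG-I, was lower, 1 of 34 against 11.1%. No member that rose was free of overlap with Control, against 8.49% of all genes, and Trim25 was the 1 member of 34 wholly below it, against 8.19%. The median log2 change was 0.24, against 0.00 over all genes, and the mean of dnOGAh-Tg was above that of Control in 29 of 34. Libraries differed within both groups: dnOGAh-Tg 5 was the highest of all 10 libraries for 19 genes, Control 5 was the highest Control for 21 and Control 3 the lowest Control for 20. These counts by library were not made over all genes. Without dnOGAh-Tg 5 no member was called higher by limma, against 9.27% of all genes. At an unadjusted p under 0.05, 9 of 34 members passed in either direction, 8 of them higher, where 4647 of 14676 genes passed in either direction. Without both F25 libraries 1 was called, against 7.43%, a comparison chosen after seeing the data. The count was 2 without Control 2 (10.1% of all genes), 2 without Control 3 (10.9%), 1 without Control 4 (9.34%) and 3 without dnOGAh-Tg 3 (10.8%). edgeR and DESeq2 each called 5 higher and 1 lower. Trim25 was called lower under every alternative tried.

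**Figure D3:**
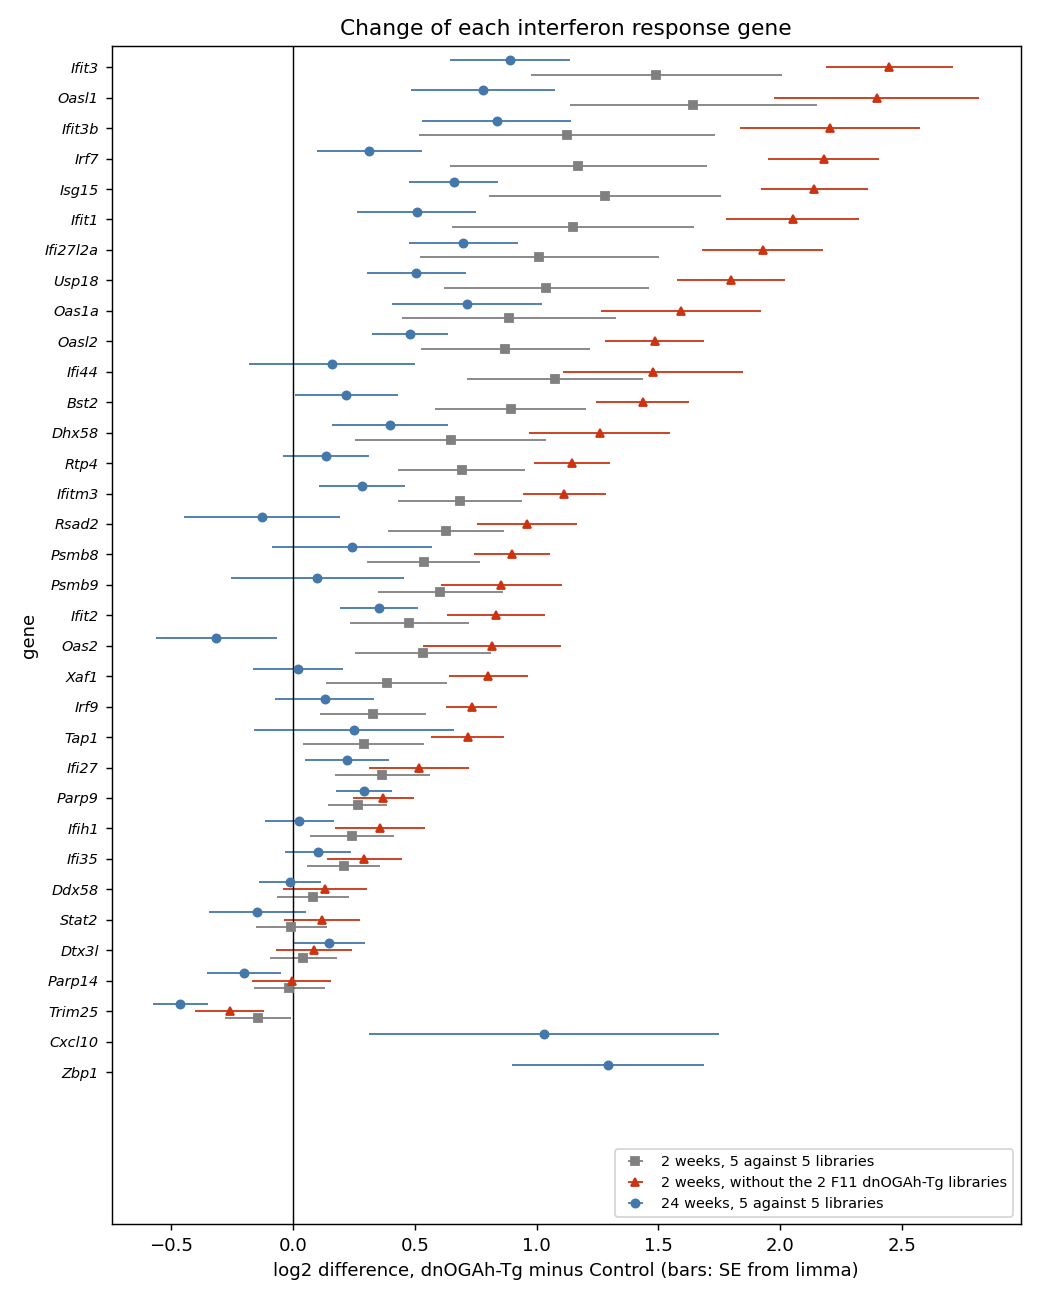
Log2 difference of dnOGAh-Tg minus Control for each gene (horizontal axis; bars are the SE from limma) at 2 weeks with all libraries (grey squares), at 2 weeks without the 2 F11 dnOGAh-Tg libraries (red triangles) and at 24 weeks (blue circles), ordered by the red triangles; Cxcl10 and Zbp1 were not tested at 2 weeks. The red triangles run from 2.45 for Ifit3 to -0.26 for Trim25, and the blue circles from 1.29 for Zbp1 to -0.46 for Trim25.

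Of the sensors of foreign nucleic acid, Ifih1 and Ddx58 did not pass at either time. Ifih1 encodes MDA5, a sensor of long double-stranded RNA. At 2 weeks it had 188, 172, 221, 228 and 137 counts in Control, 222 and 171 in the F11 dnOGAh-Tg libraries and 202, 262 and 258 in the other dnOGAh-Tg libraries. Ddx58 encodes RIG-I, the sensor of RNA with a triphosphate end, and had 367, 316, 408, 424 and 277 in Control, 353 and 357 in the F11 and 314, 456 and 407 in the other dnOGAh-Tg libraries. For both genes the groups overlapped, also without the F11 dnOGAh-Tg libraries (log2 change of Ifih1 0.36, SE 0.18, limma adjusted p = 0.149; of Ddx58 0.13, SE 0.17, limma adjusted p = 0.576). At 24 weeks Ifih1 had 228, 194, 225, 215 and 220.3 in Control and 183, 169, 269, 239 and 258 in dnOGAh-Tg. Ddx58 had 366, 329, 339, 389.9 and 381 in Control and 325, 281, 353, 435 and 414 in dnOGAh-Tg. For both, dnOGAh-Tg 1 and 2 were below every Control library and dnOGAh-Tg 4 and 5 above every one (log2 changes 0.02, SE 0.14, and -0.01, SE 0.13). Dhx58 encodes LGP2, a partner of both sensors without a signalling domain of its own. At 2 weeks it lay at 18.7 to 38.5 in Control and at 51.3 to 84.9 in the libraries with high Oga. It rose without the F11 dnOGAh-Tg libraries (1.26, SE 0.29, limma adjusted p = 0.00833). Dhx58 shares 2637 bases with Dhx58os on the opposite strand, and since the strand used in counting is not stated, reads of such pairs may not be separated.

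Zbp1, a sensor of Z-form nucleic acid that can trigger necroptosis, was near silent in Control at 2 weeks, with 6.24, 2.52, 7.69, 5.45 and 9.32 counts, and the F11 dnOGAh-Tg libraries had 7.92 and 7.02. The other dnOGAh-Tg libraries had 47.6, 81.0 and 90.05, between 7.62 and 14.4 times the Control mean and above every other library. With no filter its log2 change over all 10 libraries was 2.16 (SE 0.67, limma adjusted p = 0.130). After 24 weeks Control had 12.8, 12.2, 8.32, 8.64 and 19.0 and dnOGAh-Tg 15.4, 26.7, 41.3, 19.5 and 72.5, a rise of 1.29 (SE 0.39, limma adjusted p = 0.0325), the largest rise among the members called at that time. Only dnOGAh-Tg 1 lay inside the Control range. The call was lost without any 1 of Control 1 to 4, dnOGAh-Tg 3 or dnOGAh-Tg 5 (without the last 0.98, limma adjusted p = 0.0725), within 0.00534 to 0.136 over its alternatives.

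The factors that carry the signal to the genome did not change alike. Irf7 (chromosome 7, 140842619 to 140846394 on GRCm39), the induced factor that amplifies the response, had 97.4, 103, 138, 147 and 148 counts in Control at 2 weeks. The F11 dnOGAh-Tg libraries, with 109 and 89.3, were in the lower part of that range or below it, and the others, with 381, 664 and 728, were all above it. Its log2 change was 1.17 (SE 0.53, limma adjusted p = 0.197) with all libraries and 2.18 (SE 0.23, limma adjusted p = 0.000165) without the F11 dnOGAh-Tg libraries. At 24 weeks Control had 166, 152, 80.1, 166 and 213 and dnOGAh-Tg 166, 193, 179, 172 and 216, 4 of the 5 dnOGAh-Tg libraries inside the Control range and dnOGAh-Tg 5 just above it (0.31, SE 0.22, limma adjusted p = 0.328).

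Irf9, the part of ISGF3 that reads the DNA sequence, was even in Control at 2 weeks, at 408, 427, 404, 440.4 and 412. Both F11 dnOGAh-Tg libraries were below that range, at 313 and 379, and the other dnOGAh-Tg libraries above it, at 696, 742 and 652 (0.73 without the F11 dnOGAh-Tg libraries, SE 0.10, limma adjusted p = 0.000894). At 24 weeks Irf9 had 325, 439, 301, 382 and 517 in Control and 333, 322, 549, 368 and 614 in dnOGAh-Tg, with Control 5, dnOGAh-Tg 3 and dnOGAh-Tg 5 the highest. Stat2, the partner of Irf9 in ISGF3, had 322, 350.0, 448, 409 and 336 in Control at 2 weeks, 339 and 307 in the F11 and 328, 466 and 424 in the other dnOGAh-Tg libraries. The groups overlapped (0.12 without the F11 dnOGAh-Tg libraries, SE 0.16, limma adjusted p = 0.581). Its values at 24 weeks were 316, 314, 347, 375 and 419 in Control and 218, 233, 452, 327 and 434 in dnOGAh-Tg, with dnOGAh-Tg 1 and 2 the lowest of the 10 libraries.

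Isg15, Usp18 and Trim25 belong to the ubiquitin and ubiquitin-like arm of the response. Isg15 (chromosome 4, 156283912 to 156285253), a ubiquitin-like protein joined to other proteins, had 46.2, 59.2, 63.8, 79.0 and 48.7 counts in Control at 2 weeks, 40.2 and 83.3 in the F11 and 199.7, 277 and 318 in the other dnOGAh-Tg libraries. All 3 libraries with high Oga were above every Control library, and of the F11 pair 1 was below the Control range and 1 just above it. The log2 change was 1.28 (SE 0.48, limma adjusted p = 0.149), and 2.14 (SE 0.22, limma adjusted p = 0.000146) without the F11 dnOGAh-Tg libraries. At 24 weeks Control had 63.9, 63.1, 39.5, 58.3 and 69.6 and dnOGAh-Tg 93.3, 99.6, 68.6, 100.2 and 103. Every dnOGAh-Tg library but the third was above Control, and dnOGAh-Tg 3 was just under Control 5. Isg15 rose by 0.66 (SE 0.18, limma adjusted p = 0.0217). Its adjusted p ranged from 0.00464 to 0.250 in the alternatives, and the call was lost without dnOGAh-Tg 5.

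Usp18, the protease that removes ISG15 and also blocks the interferon receptor, had 27.5, 41.6, 44.0, 44.5 and 49.7 in Control at 2 weeks, 31.1 and 46.2 in the F11 and 126, 145 and 163 in the other dnOGAh-Tg libraries. The last were clear of every other library, and the rise without the F11 dnOGAh-Tg libraries was 1.80 (SE 0.22, limma adjusted p = 0.000402). At 24 weeks Control had 38.3, 61.1, 34.3, 55.1 and 55.7 and dnOGAh-Tg 58.2, 61.4, 65.8, 91.5 and 68.4, with 4 of the 5 dnOGAh-Tg libraries above every Control library (0.51, SE 0.20, limma adjusted p = 0.0944). It shares 15715 bases with Gm44148 on the opposite strand.

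Trim25 (chromosome 11, 88890202 to 88911119) was the 1 member that fell. It had 1014, 856, 1151, 1148 and 960.4 in Control at 2 weeks and 1132, 956, 928, 949.8 and 699 in dnOGAh-Tg, with dnOGAh-Tg 5 the lowest of all and the rest inside the Control range. At 24 weeks Control had 1001, 893, 937, 977 and 967 and dnOGAh-Tg 554, 615, 741, 852 and 737, so that every dnOGAh-Tg library was below every Control library. The change of -0.46 (SE 0.11, limma adjusted p = 0.01003) stayed within -0.54 to -0.38 over its alternatives.

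**Figure D4:**
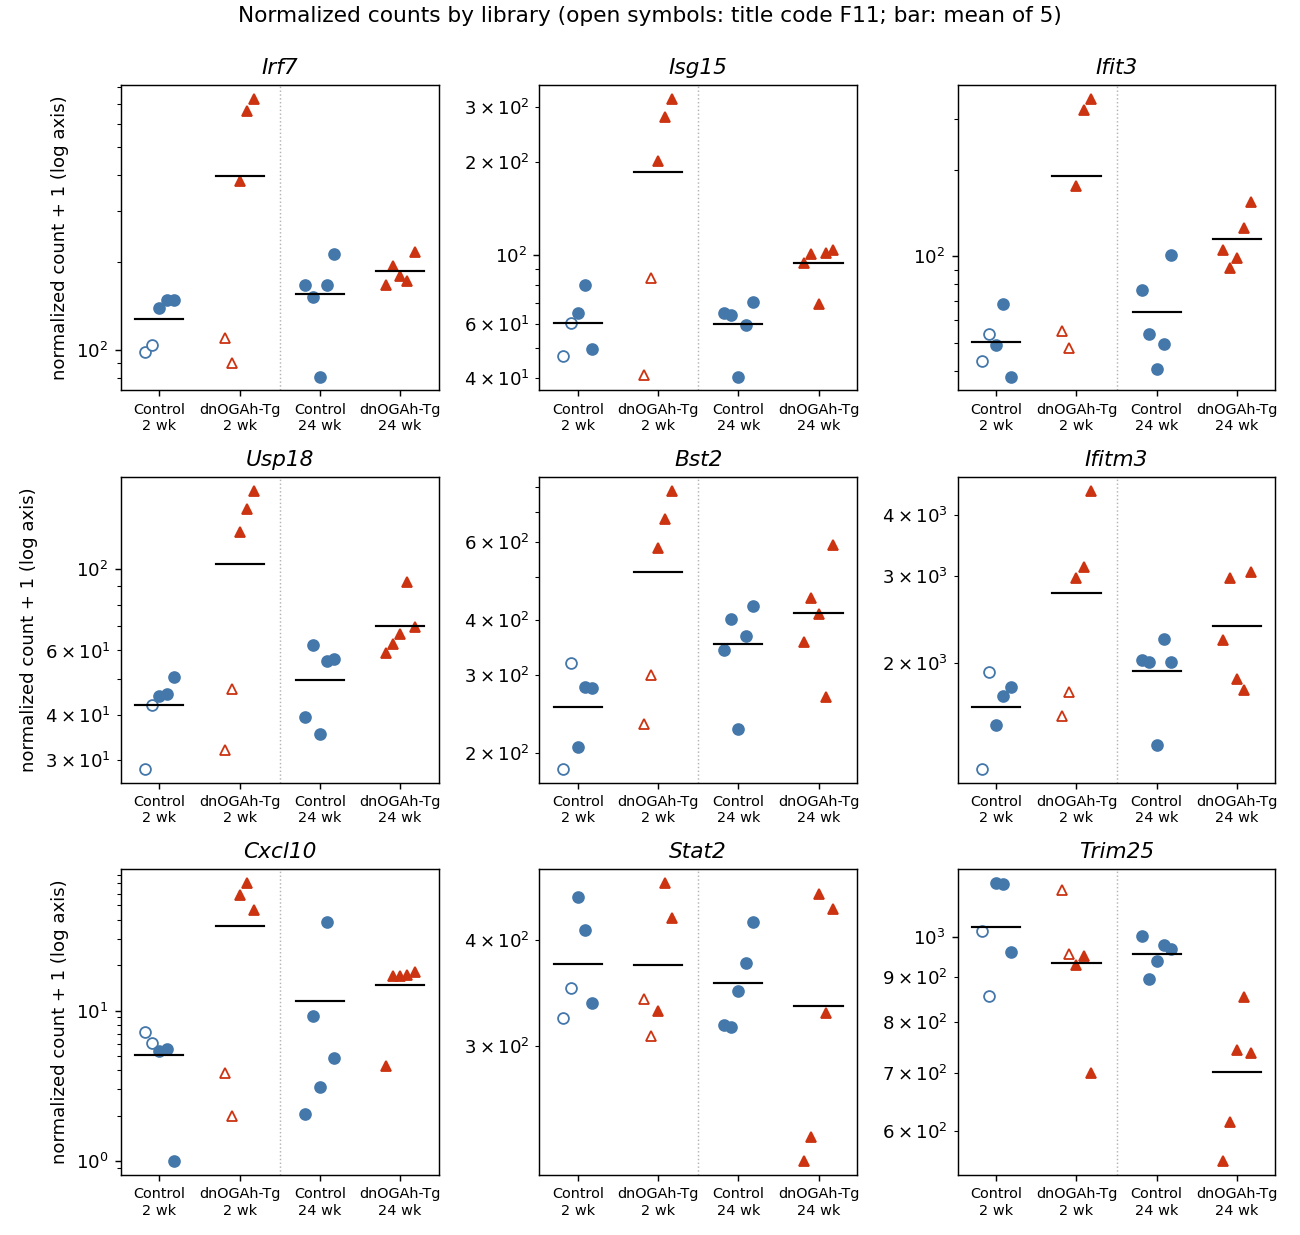
Normalized count + 1 (vertical log axes) of 9 genes in each library of the 4 groups (horizontal axis), with Control as circles, dnOGAh-Tg as triangles, F11 libraries as open symbols and the mean of 5 as a bar. At 2 weeks the filled triangles of Irf7, Isg15, Ifit3, Usp18, Bst2, Ifitm3 and Cxcl10 stand above all circles and the open triangles do not, except 1 of Isg15; Stat2 overlaps, and Trim25 separates at 24 weeks.

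The Ifit proteins bind viral RNA or its partners and stop its translation, and their genes sit side by side on chromosome 19, Ifit3 and Ifit3b 19238 bases apart. All 4 rose at 2 weeks without the F11 dnOGAh-Tg libraries. Ifit1 (chromosome 19, 34618271 to 34627409) had 74.9, 42.8, 55.0, 81.7 and 58.0 counts in Control, 45.2 and 61.2 in the F11 and 166, 276 and 364 in the other dnOGAh-Tg libraries, a rise of 2.05 (SE 0.27, limma adjusted p = 0.000632) without the F11 pair. Ifit3 (chromosome 19, 34560931 to 34566131) had 42.4, 52.9, 48.4, 67.2 and 37.3 in Control, 54.3 and 47.2 in the F11 and 174, 321 and 351 in the other dnOGAh-Tg libraries, a rise of 2.45 (SE 0.26, limma adjusted p = 0.000174). Its change over all 10 libraries was 1.49 (SE 0.51, limma adjusted p = 0.138). In both genes the libraries with high Oga were clear of all others and dnOGAh-Tg 3 was the lowest of them. Ifit3b had 12.5, 17.6, 30.8, 25.4 and 28.0 in Control, 15.3 and 15.1 in the F11 and 57.9, 143 and 135 in the other dnOGAh-Tg libraries (2.20, SE 0.37). Ifit2 had the smallest rise of the 4, from 307 to 514 in Control to 511 to 886 in the libraries with high Oga (0.83, SE 0.20, limma adjusted p = 0.0106), and dnOGAh-Tg 3 was inside the Control range.

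Of the same genes, Ifit3 alone was called at 24 weeks. Its Control libraries had 75.6, 52.9, 39.5, 48.6 and 100.03 and dnOGAh-Tg 104, 89.9, 97.7, 124 and 154, a rise of 0.89 (SE 0.25, limma adjusted p = 0.0198, within 0.00453 to 0.160 over its alternatives). Control 5 overlapped the dnOGAh-Tg range and the other 4 Control libraries were below it, and the call was lost without Control 4 or without dnOGAh-Tg 5. Ifit3b had 51.1, 28.5, 21.8, 33.5 and 69.6 in Control and 96.6, 47.2, 62.9, 57.8 and 86.6 in dnOGAh-Tg (0.84, SE 0.31, limma adjusted p = 0.0687). Ifit1 had 66.0, 61.1, 44.7, 92.9 and 110.2 in Control and 88.9, 74.7, 101, 122 and 134 in dnOGAh-Tg (0.51, SE 0.24, limma adjusted p = 0.158), with Control 4 and 5 among the dnOGAh-Tg values.

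Rsad2 encodes viperin, an enzyme that makes a chain-terminating nucleotide. At 2 weeks it had 187, 206, 278, 326 and 182 in Control, 232 and 272 in the F11 and 370.5, 472 and 514 in the other dnOGAh-Tg libraries, and rose without the F11 pair (0.96, SE 0.21, limma adjusted p = 0.00617). Its 24-week values were 334, 248, 254, 340.2 and 641 in Control and 207, 177, 488, 342 and 482 in dnOGAh-Tg, where Control 5 was the highest of all 10 libraries and dnOGAh-Tg 1 and 2 the lowest.

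Oligoadenylate synthetases sense double-stranded RNA and make the messenger that activates RNase L, and the Oasl proteins are their relatives. The 4 members of this family rose together at 2 weeks without the F11 dnOGAh-Tg libraries. Oasl1, which limits translation of Irf7 in mice, had 8.74, 8.81, 24.2, 19.1 and 7.25 counts in Control, 19.8 and 16.1 in the F11 and 45.7, 83.0 and 84.3 in the other dnOGAh-Tg libraries. It had the smallest p of the tested members with all 10 libraries (1.64, SE 0.51, limma adjusted p = 0.124), and rose by 2.40 (SE 0.42, limma adjusted p = 0.00242) without the F11 pair. Oasl2 had 115, 141, 148, 173 and 122 in Control, 119 and 151 in the F11 and 272, 459.8 and 471 in the other dnOGAh-Tg libraries (1.48, SE 0.21, limma adjusted p = 0.000801). In both genes every library with high Oga was above Control and the F11 libraries were inside the Control range. Oas1a lay at 15.0 to 42.8 in Control and 81.2 to 96.9 in the libraries with high Oga (1.59, SE 0.33). Oas2 lay at 68.0 to 163 and 133 to 251 and still overlapped (0.82, SE 0.28, limma adjusted p = 0.0444).

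At 24 weeks Oasl2 had 163, 115, 136, 136 and 153 in Control and 160.2, 164, 194, 212 and 265 in dnOGAh-Tg. It rose by 0.48 (SE 0.16, limma adjusted p = 0.0433), the call nearest the threshold. Over its alternatives the adjusted p from limma, edgeR or DESeq2 ran from 0.0165 to 0.258, and the call was lost in 11 of 22, among them those without any 1 of Control 2 to 5 or dnOGAh-Tg 3 to 5. Control 1 overlapped dnOGAh-Tg 1, and the other 4 Control libraries were below the dnOGAh-Tg range. Oasl1 had 28.8, 12.2, 11.4, 20.5 and 12.7 in Control and 23.0, 36.5, 32.9, 20.2 and 32.2 in dnOGAh-Tg (0.78, SE 0.30, limma adjusted p = 0.0771), with Control 1 and 4 inside the dnOGAh-Tg range. Oas1a and Oas2 had opposite signs, 0.71 (SE 0.31) and -0.32 (SE 0.25), and neither passed.

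Bst2 and Ifitm3 encode membrane proteins that hold back viruses, tetherin at the cell surface and an inhibitor of fusion in endosomes. Bst2 had 184, 319, 206, 281 and 279.7 counts in Control at 2 weeks, 231 and 299 in the F11 and 579, 675 and 781 in the other dnOGAh-Tg libraries. Ifitm3 had 1215, 1916, 1489, 1709 and 1784 in Control, 1553 and 1745 in the F11 and 2975, 3137 and 4478 in the other dnOGAh-Tg libraries. In both, the F11 libraries were inside the Control range and the others all above it. Without the F11 dnOGAh-Tg libraries Bst2 rose by 1.43 (SE 0.19, limma adjusted p = 0.000600) and Ifitm3 by 1.11 (SE 0.17, limma adjusted p = 0.00127). At 24 weeks Bst2 had 341, 399.9, 226, 366 and 428 in Control and 356, 447, 412, 267 and 589 in dnOGAh-Tg, and Ifitm3 had 2026, 2002, 1357, 2237 and 2003 in Control and 2221, 2971, 1851, 1759 and 3066 in dnOGAh-Tg. The groups overlapped, with dnOGAh-Tg 4 the lowest of dnOGAh-Tg for both (log2 changes 0.22, SE 0.21, and 0.28, SE 0.18).

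Other interferon-induced genes included Ifi27l2a, a small hydrophobic protein, which at 2 weeks had 149, 194, 117, 228 and 219 in Control, 143 and 130.5 in the F11 and 506, 634 and 944 in the other dnOGAh-Tg libraries. The last were all above Control and the F11 pair was in its lower part (1.93 without the pair, SE 0.25, limma adjusted p = 0.000497). In the 24-week libraries Control had 235, 171, 109, 222 and 253 and dnOGAh-Tg 397, 370.1, 239, 258 and 311, a rise of 0.70 (SE 0.22, limma adjusted p = 0.0410, within 0.00813 to 0.257 over its alternatives). Control 5 alone reached into the dnOGAh-Tg range, and dnOGAh-Tg 1 and 2 were the highest. The call was lost without any 1 of Control 2 to 4, dnOGAh-Tg 1, dnOGAh-Tg 2 or dnOGAh-Tg 5. Its neighbour Ifi27 had 383, 676, 443, 431 and 706 at 2 weeks in Control, 489 and 648 in the F11 and 685, 668 and 858 in the other dnOGAh-Tg libraries, and overlapped (0.52, SE 0.21, limma adjusted p = 0.0724). At 24 weeks Ifi27 had 655, 682, 545, 753 and 847 in Control and 857, 775, 608, 681 and 1212 in dnOGAh-Tg, with dnOGAh-Tg 5 above the rest.

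Ifi44, named for its induction by interferon, had 52.4, 37.8, 39.6, 88.1 and 24.9 in Control at 2 weeks, 65.0 and 59.2 in the F11 and 80.3, 160.1 and 154 in the other dnOGAh-Tg libraries. Control 4 was above dnOGAh-Tg 3, so the groups overlapped (1.48 without the F11 pair, SE 0.37, limma adjusted p = 0.0120). Rtp4, a chaperone of receptors, had 109, 135, 118, 149 and 136 in Control, 114 and 148 in the F11 and 259, 331 and 270.1 in the other dnOGAh-Tg libraries, with no overlap for the last (1.15, SE 0.16, limma adjusted p = 0.000712). Xaf1, which binds the apoptosis inhibitor XIAP, rose from 114 to 159 in Control to 201 to 255 (0.80, SE 0.16), and Ifi35 was at 0.29 (SE 0.15, limma adjusted p = 0.159). At 24 weeks none of these 4 passed, with log2 changes of 0.16, 0.13, 0.02 and 0.10. For Ifi44 the dnOGAh-Tg libraries were split into 1 and 2, at 31.8 and 35.6, and 3 to 5, at 80.7 to 98.6, around a Control range of 32.2 to 79.9. Rtp4 shares 39791 bases with Gm45338 on the same strand and 525 with Masp1 on the other, so its counts are uncertain.

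Parp9 and Dtx3l form a complex that modifies histones and ubiquitin during the response, and Parp14 is another ADP-ribosyltransferase. Of the 3, Parp9 alone passed at 2 weeks without the F11 dnOGAh-Tg libraries, from 496 to 670.3 in Control to 721 to 872 (0.37, SE 0.13, limma adjusted p = 0.0413). Dtx3l was at 0.09 (SE 0.16) and Parp14 at -0.01 (SE 0.16). At 24 weeks Parp9 was at 0.29 (SE 0.12, limma adjusted p = 0.0916), Dtx3l at 0.15 and Parp14 at -0.20. Parp9 and Dtx3l overlap by 682 bases on opposite strands.

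Cxcl10, the chemokine that draws T cells, had the widest ratio of the 34 genes. Its 2-week counts in Control were 6.24, 5.04, 4.40, 4.54 and 0, and the F11 dnOGAh-Tg libraries had 2.83 and 1.00. The other dnOGAh-Tg libraries had 57.9, 69.3 and 45.6, 11.3 to 17.1 times the Control mean. No filter gave a log2 change of 2.03 over all 10 libraries (SE 0.96, limma adjusted p = 0.243). It shares 2252 bases with Art3 on the opposite strand. After 24 weeks Control had 1.07, 8.14, 2.08, 37.8 and 3.80 and dnOGAh-Tg 3.29, 16.0, 16.0, 16.1 and 17.1 (1.03, SE 0.72, limma adjusted p = 0.334). Control 4 was the highest of the 10 and 4 of the 5 dnOGAh-Tg libraries were within a narrow band above the other Control libraries.

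Psmb8 and Psmb9 encode catalytic subunits of the immunoproteasome, and Tap1 one chain of the pump that carries its peptides to MHC class I, all side by side on chromosome 17 (34406527 to 34416199 for Tap1). Psmb8 had 272, 412, 331, 362 and 423 in Control at 2 weeks, 288 and 432 in the F11 and 606, 647 and 748 in the other dnOGAh-Tg libraries. Psmb9 had 109.9, 164, 182, 166 and 253 in Control, 153 and 257 in the F11 and 245, 280.2 and 418 in the other dnOGAh-Tg libraries. Tap1 had 171, 184, 254, 186 and 213, 136 and 181 and 324, 316 and 347 in the same groups. For Psmb8 and Tap1 the libraries with high Oga were above all Control libraries, and for Psmb9 Control 5 was above dnOGAh-Tg 3. Without the F11 dnOGAh-Tg libraries the rises were 0.90 for Psmb8 (SE 0.16, limma adjusted p = 0.00230), 0.85 for Psmb9 (SE 0.25, limma adjusted p = 0.0225) and 0.72 for Tap1 (SE 0.15, limma adjusted p = 0.00555). Psmb9 and Tap1 overlap by 212 bases on opposite strands.

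At 24 weeks these 3 genes followed single libraries and not the groups. Tap1 had 216, 275, 198, 191 and 581 in Control and 184, 206, 599, 204 and 667 in dnOGAh-Tg. Psmb8 had 387, 603, 298, 462 and 904 in Control and 429, 667, 679, 321 and 1073 in dnOGAh-Tg. Psmb9 had 211, 343, 166, 246 and 495 in Control and 233, 319, 408, 133 and 513 in dnOGAh-Tg. Control 5, dnOGAh-Tg 3 and dnOGAh-Tg 5 were the highest 3 of 10 libraries for all 3, and also for Irf9, Stat2, Rsad2 and Parp9, 7 of the 34. Control 5 and dnOGAh-Tg 5 are F25 and dnOGAh-Tg 3 is F23. The log2 changes of Tap1, Psmb8 and Psmb9 were 0.25 (SE 0.41), 0.24 (SE 0.33) and 0.10 (SE 0.35), with limma adjusted p of 0.705, 0.642 and 0.872. Isg15, Ifit3, Oasl2 and Usp18 did not share this order: dnOGAh-Tg 4 was high for them and low for Tap1, Psmb8 and Psmb9.

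**Figure D5:**
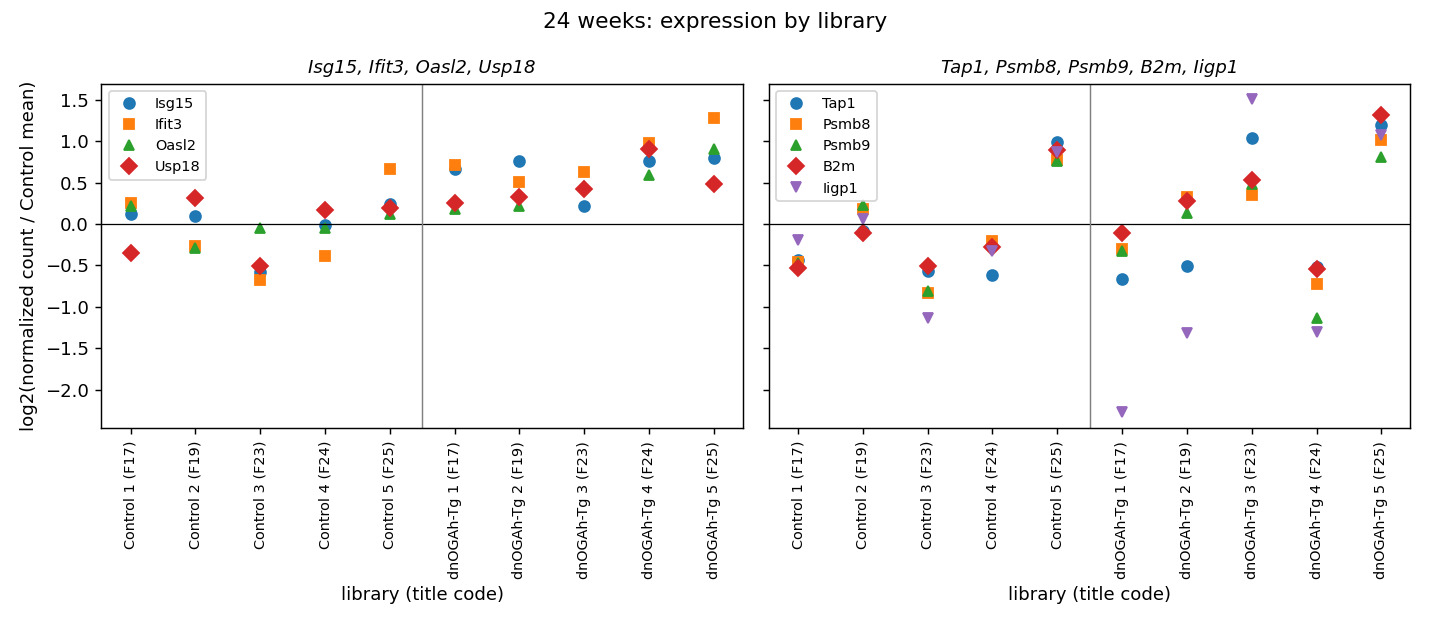
Log2 of normalized count over the Control mean (vertical axis) at 24 weeks in each library (horizontal axis, with its title code), for Isg15, Ifit3, Oasl2 and Usp18 on the left and for Tap1, Psmb8, Psmb9, B2m and Iigp1 on the right. On the left most dnOGAh-Tg points lie above 0, and on the right Control 5, dnOGAh-Tg 3 and dnOGAh-Tg 5 are high whatever the group.

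Whether the change differed between 2 and 24 weeks was tested in 1 fit of the 4 groups. With all libraries no member of 32 was called, against 1.07% of 14339 genes called higher and 0.683% called lower, and at an unadjusted p under 0.05 1 member was lower, against 8.04% of all genes, and none higher, against 7.4%. edgeR and DESeq2 also called none of the 32. Without the F11 dnOGAh-Tg libraries 7 of the 32 had a lower change at 24 weeks, against 0.872% of all genes, and none a higher one, against 1.31%. Irf7 differed most, by -1.87 (SE 0.34, limma adjusted p = 0.0104), from 2.18 at 2 weeks to 0.31 at 24 weeks. Isg15 differed by -1.48 (SE 0.29, limma adjusted p = 0.0146) and Usp18 by -1.29 (SE 0.30, limma adjusted p = 0.0320). Rtp4, Ifit3, Ifit1 and Bst2 were at -1.01, -1.56, -1.54 and -1.22, with limma adjusted p of 0.0387, 0.0391, 0.0448 and 0.0468. With all libraries the same contrast was -0.86 for Irf7 (limma adjusted p = 0.552) and -0.62 for Isg15 (limma adjusted p = 0.642). Trim25 was at -0.20 (SE 0.18, limma adjusted p = 0.520), so its fall was not shown to differ between the times.

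The pathway above these genes was read from lists of other genes. None of 21 interferon ligand genes, Ifnb1 among them, was listed at either time, so none could be tested. The lowest total of a listed gene was 10 reads over the 10 libraries of its time. The receptor chains Ifnar1 and Ifnar2 were within -0.06 and 0.27 at both times and did not pass. Of the 11 receptor and JAK-STAT genes, 2 fell at 2 weeks without the F11 dnOGAh-Tg libraries, where 17.7% of all genes fell. These were the kinases Jak1 and Jak2 (-0.59, SE 0.11, and -0.53, SE 0.14, limma adjusted p = 0.00296 and 0.0155). At 24 weeks 2 of 11 fell, Jak1 and the receptor chain Il10rb, where 11.1% of all genes fell. Jak1 was at 4750.0 to 5909 in Control and 3351 to 4399 in dnOGAh-Tg (-0.39, SE 0.10, limma adjusted p = 0.0113). Tyk2 was at -0.15 and -0.16 and did not pass. In the list of sensing genes, 6 of 22 rose and 1 fell at 2 weeks without the F11 dnOGAh-Tg libraries, where 16.1% of all genes rose and 17.7% fell. At 24 weeks 3 of 23 rose and 1 fell, where 11.3% of all genes rose and 11.1% fell. Mavs, the mitochondrial adaptor of the RNA sensors, was the one that fell at both times (-0.57, SE 0.13, and -0.35, SE 0.09, limma adjusted p = 0.00728 and 0.0140). Ticam1, the adaptor of Toll-like receptor 3, rose at both (0.82, SE 0.12, and 0.77, SE 0.12). Sting1, the adaptor of DNA sensing, rose at 2 weeks without the F11 pair (0.92, SE 0.19) and was at 0.31 at 24 weeks, and Irf3 was at -0.17 and -0.24 and did not pass. With all 10 libraries none of these lists held a call at 2 weeks.

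Of 46 other type I interferon-induced genes tested at 2 weeks, 17 rose and 1 fell without the F11 dnOGAh-Tg libraries, a comparison that called 16.1% of all genes higher, with a median log2 change of 0.39 against -0.02 over all genes. Tor3a rose by 0.89 (SE 0.11), Slfn2 by 1.17 (SE 0.16) and Epsti1 by 1.504 (SE 0.25). Mx1, a dynamin-like antiviral protein, was too low to test, at 1.26 to 6.59 in Control and 27.1 to 37.1 in the libraries with high Oga. At 24 weeks 3 of 45 rose (Tor3a, Ifi204 and Ube2l6, the enzyme that loads ISG15) and 1 fell, against 11.3% and 11.1% of all genes. Of 19 gamma-type genes 10 rose at 2 weeks without the F11 pair (16.1% of all genes), among them the GTPase Igtp (1.87, SE 0.23) and Irf8 (1.11, SE 0.17), and none passed at 24 weeks. In the list of MHC class I presentation 9 of 17 rose and 1 fell in the same comparison (16.1% and 17.7% of all genes), with B2m at 1.00 (SE 0.15) and Psmb10 at 0.54 (SE 0.14). At 24 weeks 1 of 18 passed, the fall of Psme1 (-0.64, SE 0.14). Constitutive proteasome subunits, which the immune ones replace, rose in 9 of 14 in the same 2-week comparison, again against 16.1% of all genes, with Psmb5, the subunit that Psmb8 replaces, at 0.77 (SE 0.20).

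The sums of macrophage and lymphocyte markers were high at 2 weeks in the libraries with high Oga, while that of dendritic cell markers stayed inside the Control range. The summed level of 13 macrophage and monocyte markers at 2 weeks was 5509.7 to 7578 in Control, 6759 and 8055 in the F11 dnOGAh-Tg libraries and 15453 to 16344 in the other dnOGAh-Tg libraries. Without the F11 pair 9 of the 12 tested markers rose, where 16.1% of all genes rose. Their median log2 change was 1.39, against 0.93 for the interferon genes. The Fc receptor gene Fcgr1 rose by 2.22 (SE 0.23), Lyz2 by 1.58 and Cd68 by 1.40 (SE 0.17), while the resident-type markers Cd163 and Mrc1 were at 0.34 and 0.33. The sum of 14 lymphocyte markers was 56.7 to 89.9 in Control, 73.0 and 121 in the F11 and 141 to 207 in the other dnOGAh-Tg libraries, and 3 of the 14 were under 10 counts in every library. At 24 weeks the macrophage sum was 5899 to 12599 in Control and 8666 to 15058 in dnOGAh-Tg. Fcgr1 alone of 12 rose (0.92, SE 0.26), where 11.3% of all genes rose. Siglech, a marker of the plasmacytoid dendritic cells that make much interferon, was at 10.4 to 20.9 in Control and 1.87 to 17.1 in dnOGAh-Tg at 2 weeks, with the libraries of high Oga not above the rest. Of 8 dendritic cell markers 3 were tested at 2 weeks and 1 rose without the F11 pair, where 16.1% of all genes rose. The sum of the 8 was 449 to 638 in Control, 567 and 560 in the F11 and 461 to 508 in the other dnOGAh-Tg libraries. The sum of 6 neutrophil markers was at most 56.9 at 2 weeks, and at 24 weeks 23.9 to 132 in Control and 19.5 to 144 in dnOGAh-Tg. The part of these cells in the interferon gene results was not tested.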

How the data were processed

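RNA of 20 left ventricle libraries was analysed from a pair of deposited tables, one per time. The values the authors deposited are normalized signal, read counts per gene divided by 1 size factor per library; in the deposited tables all values came out as whole reads within 0.01 read, and for 2 columns 1 read was worth within 1% of 1. Per the submitters' processing notes, the tools included cutadapt 2.6, Trim Galore 0.6.6, STAR 2.7.3a, DESeq2 and R 4.0.3, with the build GRCm39. The counter, annotation release and strand setting are not named there.

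The main test was limma 3.58.1 in R 4.3.3 on log2(value + 1), with each time in its own table, genes kept where 5 or more of the 10 libraries reached 10, and Benjamini-Hochberg adjustment over all genes tested. The difference between times came from 1 fit of the 4 groups; the tables were normalized separately. The recovered counts were also tested with edgeR 4.0.16 and DESeq2 1.42.0. Other alternatives were the pseudocount, the filter, the normalization, the blocks and leaving out libraries. Depth sets the precision of low genes; counts carry no molecular identifiers.

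The members, the 7 pathway lists and 10 marker lists and the tests were chosen with earlier results of these data known. Per-library values were given for a fixed part of the members, for members called (at most 12 per contrast), and, where fewer than 8 were called, for those with the smallest p up to 8; from each pathway list at most 4 called genes per time, by smallest p, and a fixed few were named. Marker genes were named after their values were seen. Promoter letters are from RefSeq on GRCm38.p6, and gene positions from the deposited tables. Results of 1 gene of the receptor and JAK-STAT list are not reported here.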

Additional observations from a re-analysis of the deposited data

Results flagged for a closer look

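In 7 of 140 groups of 5 libraries, 1 library stood apart from the other 4 by Dixon's criterion, which chance gives in about 1 in 20 groups. All 7 were at 24 weeks. In Control, Rsad2 was 641 in library 5 against 340.2 in the nearest, and Tap1 was 581 in the same library against 275. Cxcl10 was 37.8 in Control 4 against 8.14 in the nearest, and Ifitm3 was 1357 in Control 3, below the nearest at 2002. In dnOGAh-Tg, Dhx58 was 85.5 in library 5 against 46.4 in the nearest. Isg15 was 68.6 in dnOGAh-Tg 3, below the nearest at 93.3, and Cxcl10 was 3.29 in dnOGAh-Tg 1, below the nearest at 16.0.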

How the results depend on the processing

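No called direction reversed. Of 2590 values of single genes under an alternative, 83 changed sign, 11 of them within the F11 libraries, and none of the 83 was called in either setting. Of the 2590, 2451 kept their side of the threshold, 105 passed it newly and 34 were lost. At 2 weeks the count of 0 members higher became 8 with DESeq2, 3 with all 20 libraries in 1 fit, 24 without the F11 dnOGAh-Tg libraries, 21 without all F11 libraries and 17 in F14 libraries alone, and 0 to 16 when 1 library was left out (16 without dnOGAh-Tg 1). At 24 weeks the 5 higher became 3 with quantile normalization, 0 with all 20 libraries in 1 fit, 1 without the F25 libraries and 8 with the replicate block, and 0 to 7 when 1 library was left out, while the 1 lower was kept. For the difference, 0 lower became 7 without the F11 dnOGAh-Tg libraries. The cause of these changes was not tested. Over all genes, calls ranged from 0 to 2351 higher and 0 to 2578 lower at 2 weeks, from 1091 to 1970.0 and 1036 to 2002 at 24 weeks, and from 73 to 313 and 26 to 413 for the difference.

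The deviations of same-numbered libraries had correlations of 0.38, -0.17, -0.21, 0.05 and 0.17 at 2 weeks and -0.02, 0.52, 0.39, -0.15 and 0.06 at 24 weeks. Not every pair was over 0.1, so the numbers were not taken as pairs, although at 24 weeks each title code marks 1 library of each group. With the replicate block, members called were 0 of 32 at 2 weeks (202 of 14584 genes higher and 39 lower), 8 of 34 higher and 1 lower at 24 weeks (1919 of 14676 genes higher and 2002 lower) and 0 of 32 for the difference (200 and 222 of 14339 genes). At 24 weeks, 2 of the 5 numbers correlated best with their own. Depth limits Zbp1, Cxcl10 and Oasl1, whose counts were near the filter.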

Other observations

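At 24 weeks, genes that interferon gamma induces followed single libraries more than groups. Of 19 such genes, 15 had Control 5, dnOGAh-Tg 3 and dnOGAh-Tg 5 as the 3 highest of 10 libraries, among them Igtp, Iigp1, Gbp2, Irf1 and Cxcl9. Of 18 genes of MHC class I presentation 8 did so, B2m and H2-K1 among them, and of 14 constitutive proteasome subunits 0. Among 45 other type I interferon-induced genes 6 had this order. The order was noticed in these values, and no test was made of it.

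Among tested markers of other cells at 24 weeks, limma at an adjusted p under 0.05 called 4 of 9 cardiomyocyte genes (Pln, Ryr2, Myh6 and Tnni3), 6 of 10 endothelial genes and 4 of 4 erythroid genes lower. Of mural genes 2 of 6 were lower and 1 higher, of fibroblast genes 2 of 8 (Lum and Col1a1) were higher, and of atrial genes 2 of 4 (Sln and Nppa) were higher. Over all genes tested at 24 weeks, 11.1% were lower and 11.3% higher. At 2 weeks without the F11 dnOGAh-Tg libraries, 4 of 9 cardiomyocyte genes, 3 of 10 endothelial genes and 1 of 6 mural genes were lower. In the same comparison 1 of 10 endothelial, 1 of 8 fibroblast and 1 of 3 atrial genes were higher, and no erythroid gene was called. It called 17.7% of all genes lower and 16.1% higher. With all 10 libraries at 2 weeks none of these markers was called by limma. Their part in the interferon gene results was not tested.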
